A study of Sus scrofa with 9 samples.

Results

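Insulin, PI3K-AKT and mTOR signalling was represented by 36 genes, listed by their place in the pathway from the insulin receptor and its substrates through PI3-kinase and AKT to the mTOR complexes, their effectors and the inhibitors of the pathway. A gene was taken when its symbol stood in both tables of 5-hydroxymethylcytosine (5hmC) levels. This held for 34 of the 36, out of 18933 genes in the table of Obese and Lean libraries and 18992 genes in the table of vitamin-C-treated and untreated Obese libraries. AKT1 and PIK3R3 were not analysed here.

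All libraries came from cultured mesenchymal stem/stromal cells (MSCs) of the subcutaneous abdominal fat of female domestic pigs, which were 3 months old when their diets began. Lean-MSCs came from pigs on standard chow, and untreated Obese-MSCs from pigs fed a high-fat/high-fructose diet for 16 weeks. Treated Obese-MSCs came from pigs on that same diet, with vitamin-C added to the culture at 50 µg/mL for 48 h. The paper states that its growth medium already held vitamin-C at a lower level. Each group had 3 libraries, and cells of every group had been expanded in medium with platelet lysate to passages 3 to 4 before their DNA was taken, so the levels describe expanded cultures and not fat tissue. In hMeDIP-seq an antibody pulls fragments with 5hmC out of sheared DNA for sequencing, and here the reads over the exons of a gene were summed into a single normalized count. A normalized count is a level of 5hmC and not of RNA or protein, it depends on how long the exons of a gene are, and it is compared below only between libraries for the same gene.

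5hmC is made from methylated cytosine by the TET enzymes, which use vitamin-C as a cofactor, and in gene bodies it usually accompanies transcription. Insulin binds a receptor tyrosine kinase that phosphorylates the IRS proteins. These recruit PI3-kinase, whose lipid product brings PDPK1 and AKT to the membrane. AKT then releases glucose transporter vesicles, restrains GSK3 and, by inhibiting the TSC complex, lets RHEB switch on the mTOR complex that drives protein synthesis. In adipose tissue the pathway controls glucose uptake and lipid storage, and it becomes less responsive in obesity.

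The normalized counts summed to between 494566 and 522269 per library in the table of Obese and Lean libraries and to between 547242 and 593846 in the other. The 34 genes took up between 0.218% and 0.243% of these sums with Lean libraries included, and 0.234% to 0.252% in the table of treated libraries. The untreated Obese libraries stand in both tables, and for the median gene their values were 1.10 to 1.13 times as high in the second, so levels were compared within a table. Of genes that mark cell types, NT5E, THY1 and ENG of MSCs had 12.4 to 76.1 normalized counts in every library. ENG was higher in Obese-MSCs, at 52.7, 67.4 and 52.0 against 51.7, 37.7 and 31.9 in Lean-MSCs. Its groups did not overlap and the ratio was 1.42, but it was not called by the study criteria given below. In limma, a separate test, its adjusted p was 0.743. PTPRC and CD34, which mark blood cells, had 13.4 to 73.4, and CD14, a monocyte marker, was listed at 0 in all 3 Lean libraries and had at most 4.83 in any Obese one. All 6 markers were read as 5hmC over exons, which does not measure expression, and the part of other cell types in the results below was not tested.

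Setting Obese-MSCs against Lean-MSCs asks whether 5hmC on the genes of insulin signalling differs between cells of pigs on the 2 diets. The paper reports that its Obese pigs also had hypertension, dyslipidemia and insulin resistance. It states that obesity and dyslipidemia cannot be told apart with certainty. It also describes a further passage for Obese-MSCs and none for Lean-MSCs. The part of each in the results below was not tested. By the measures used, the 34 genes differed between the groups about as often as all genes did, or less often, as the shares below show. MLST8, a subunit shared by both mTOR complexes, had 1.55-fold more 5hmC in Obese-MSCs and was the only gene past the criteria of the study, which ask for an unadjusted p-value of 0.05 or less in a two-sided test with equal variances and for a fold change of 1.4 or more (high) or 0.7 or less (low) between the means of the groups. IRS1, the insulin receptor substrate that carries the signal to PI3-kinase, had 1.66-fold more 5hmC in Obese-MSCs, and its groups did not overlap. The levels of INSR, AKT2, MTOR and SLC2A4, which encode the receptor, the main AKT of fat cells, the mTOR kinase and the insulin-responsive glucose transporter, overlapped between the groups.

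Thus 1 of the 34 genes was called high and 0 were called low, where 2.07% of all 18933 genes were called high and 2.43% low. In 3 genes (IRS1, MLST8 and AKT1S1) every Obese library lay above every Lean one, and in 1 gene (SHC1) every Obese library lay below, while over all genes 5.70% and 6.06% did so. That is 11.8% of the 34 genes and 11.8% of all genes. With limma on log2(normalized count + 1), 31 of the 34 were tested and 0 had an adjusted p-value of 0.05 or less, as for all 15146 genes tested (0%). At an unadjusted p-value of 0.05 limma called 1 of them, IRS1, and 6.81% of all genes tested. Group means were higher in Obese-MSCs for 21 genes and lower for 13. The median log2 ratio of group means was 0.06 for the 34 genes and 0.01 for all genes whose mean passed 3 normalized counts in either group.

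**Figure D1:**
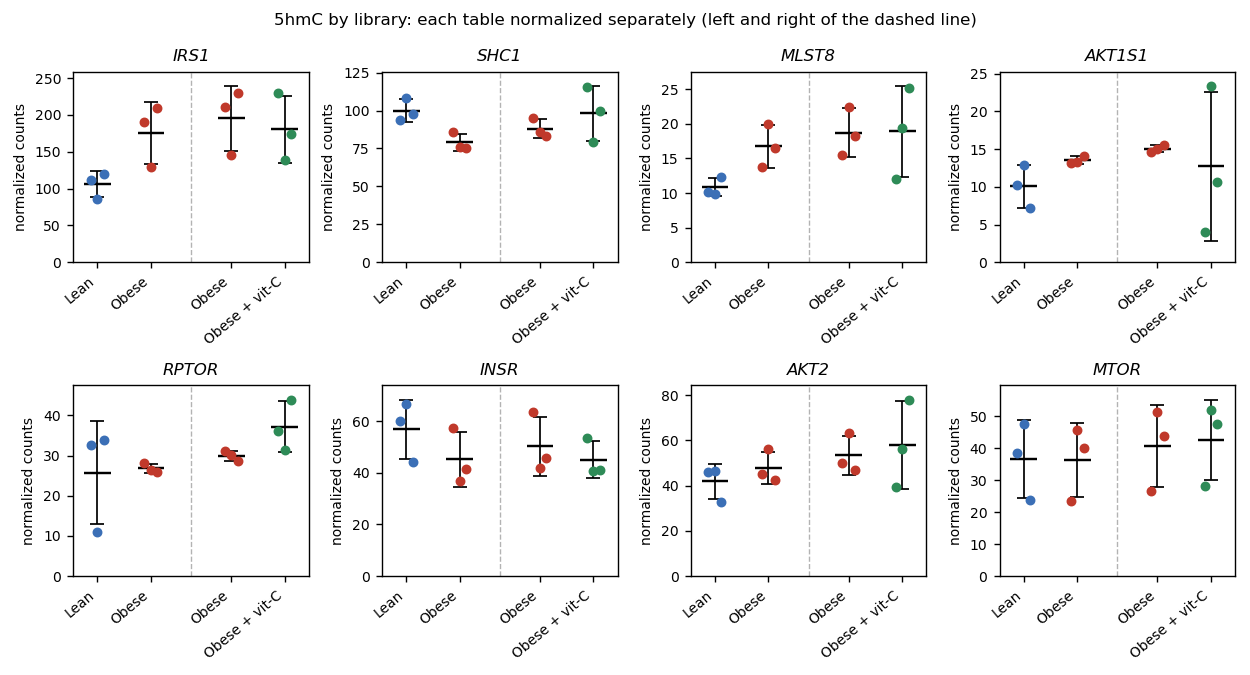
Normalized counts of 5hmC (vertical axis, from 0) of 8 genes in each library, with Lean (blue) and untreated Obese (red) libraries of the first table left of the dashed line and untreated (red) and vitamin-C-treated (green) Obese libraries of the second table right of it. Points are libraries and bars are the mean and SD of 3 libraries. The Obese points of IRS1, MLST8 and AKT1S1 all lie above the Lean points, those of SHC1 all lie below, and the treated points of RPTOR all lie above the untreated ones.

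Among the receptor and its substrates, IRS1 (chr15:128245846-128307321 in Sscrofa11.1) had a level of 189.9, 129 and 209 normalized counts in Obese replicates 1 to 3 and of 112, 86.4 and 120.1 in Lean replicates 7 to 9, the order kept below. The lowest Obese library, replicate 2, was close to the highest Lean one, and the groups did not overlap. The means were 176 ± 41.9 and 106 ± 17.6 (SD, n = 3 each, as for all means below), a log2 ratio of 0.73 that ran from 0.59 to 0.91 when single libraries were left out. The exact permutation p was 0.1, the smallest that 3 libraries against 3 can give. Limma gave a difference of 0.71 ± 0.22 (SE) on its log2 scale with a 95% interval of 0.26 to 1.16, and an adjusted p of 0.668 over all genes tested. IRS1 was not past the study criteria with all 6 libraries, but it was when Obese replicate 2 was left out.

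SHC1 encodes an adaptor that links the activated receptor to the RAS and MAP kinase pathway. It lies at chr4:94818226-94831766, where its span overlaps that of CKS1B. Its levels were 85.7, 75.8 and 75.4 in Obese-MSCs against 93.9, 108 and 97.6 in Lean-MSCs. Each Obese library was thus below each Lean library, with means of 79.0 ± 5.82 and 99.9 ± 7.43 and a log2 ratio of -0.34 (exact permutation p = 0.1). The ratio of 0.791 did not reach the fold criterion of the study, and the adjusted p in limma was 0.806. CKS1B itself had at most 7.76 normalized counts in any library of that table.

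INSR, the insulin receptor gene at chr2:71797209-71939923, had 57.3, 36.9 and 41.3 normalized counts in Obese-MSCs and 59.9, 66.5 and 44.2 in Lean-MSCs. Obese replicate 1 lay within the Lean range and Lean replicate 9 within the Obese range, so the groups overlapped. The log2 ratio was -0.33 (exact permutation p = 0.2), with a limma interval of -0.86 to 0.20. IRS4, a substrate gene on chromosome X, had low levels throughout, with 6.34, 4.73 and 3.64 in Obese-MSCs against 2.48, 6.95 and 13.3 in Lean-MSCs. Its log2 ratio of -0.63, the lowest of the genes with both means above 3, rested on Lean replicate 9, and without that library it was 0.06. IRS2, a substrate of particular weight in liver, had means of 14.7 ± 4.32 and 16.7 ± 3.48, with groups that overlapped.

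The 3 catalytic subunits of PI3-kinase all had a higher mean in Obese-MSCs, but none had separate groups. PIK3CD, the subunit best known from white blood cells, had 26.0, 10.3 and 24.5 normalized counts in Obese-MSCs and 11.4, 10.9 and 15.4 in Lean-MSCs. Obese replicate 2 was lower than every Lean library while the other Obese libraries were higher than each of them. Its log2 ratio was 0.69 (exact permutation p = 0.4), and it was past the study criteria only when that library was left out. PIK3CB, a subunit present in most tissues, had means of 18.5 ± 3.51 and 13.1 ± 4.98 and a log2 ratio of 0.50. For PIK3CA, which carries most of the insulin signal, levels were 31.6, 24.7 and 14.5 in Obese-MSCs against 21.5, 21.8 and 24.6 in Lean-MSCs. The Obese range enclosed the Lean range, and the log2 ratio was 0.06.

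PIK3R1 encodes the p85 and related regulatory subunits that bind IRS proteins. It had 80.5, 78.6 and 123 normalized counts in Obese-MSCs and 92.5, 84.4 and 64.8 in Lean-MSCs. Only Obese replicate 3 was above the Lean range, and the log2 ratio was 0.22 (limma interval -0.28 to 0.69). PIK3R2, the gene of p85 beta, had means of 13.4 ± 4.40 and 16.8 ± 1.68, with groups that overlapped. It was past the study criteria for low 5hmC when Obese replicate 1 was left out.

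PDPK1 encodes the kinase that phosphorylates AKT at the membrane. Its levels were 25.7, 30.4 and 18.0 in Obese-MSCs and 18.3, 27.8 and 28.7 in Lean-MSCs, with a log2 ratio of -0.02, and the groups covered nearly the same range. AKT2 (chr6:48555785-48620472), the AKT gene tied most closely to glucose uptake, had 44.9, 56.0 and 42.6 in Obese-MSCs against 46.2, 46.7 and 32.9 in Lean-MSCs. Lean replicate 9 was lowest and the other Lean libraries lay among the Obese ones. The log2 ratio was 0.19 (exact permutation p = 0.6) and the limma interval was -0.33 to 0.72.

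TSC1 and TSC2 encode the complex that holds mTOR in check, and RHEB the small GTPase it acts on. RHEB had 6.73, 9.47 and 13.9 normalized counts in Obese-MSCs and 12.4, 9.92 and 13.3 in Lean-MSCs, and Obese replicate 3 exceeded all 3 Lean libraries. The log2 ratio was -0.25. TSC1 had means of 12.4 ± 2.47 in Obese-MSCs and 14.7 ± 3.96 in Lean-MSCs. TSC2 had 11.6 ± 0.207 and 9.40 ± 2.37, and it was past the study criteria when Lean replicate 8 was left out. All 3 genes had groups that overlapped.

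Of the 7 genes of the mTOR complexes, 2 (MLST8 and AKT1S1) were separately higher in Obese-MSCs, beside 5.70% of all genes. Means were higher in 4 of the 7 and lower in 3, and no test was made on these genes as a group. MLST8 lies at chr3:39778746-39786206, a span of 7461 bases that also overlaps the genes PGP and BRICD5. Its levels were 13.8, 19.96 and 16.5 in Obese-MSCs against 10.2, 9.93 and 12.3 in Lean-MSCs. Every Obese library was above every Lean library, and the gap between the nearest of them, Obese replicate 1 and Lean replicate 9, was smaller than the range of either group. The means were 16.7 ± 3.103 and 10.8 ± 1.30 (SD, n = 3 each), with a log2 ratio of 0.63 that ran from 0.48 to 0.75 when single libraries were left out (exact permutation p = 0.1).

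In limma the interval of the MLST8 difference was -0.09 to 1.24 with an adjusted p of 0.779. Its call by the study criteria was kept when Obese replicate 1 was left out and was lost without any of the other 5 libraries, and it was also lost in a test with unequal variances. PGP, which encodes a phosphatase of glycolytic metabolites and shares part of that span, had 13.0, 18.0 and 18.7 in Obese-MSCs and 10.3, 9.92 and 17.4 in Lean-MSCs. Its groups overlapped, with a log2 ratio of 0.40. BRICD5 had at most 1.93 normalized counts. Whether reads over exons shared by such genes entered the count of MLST8 was not tested.

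AKT1S1, also known as PRAS40, encodes an AKT substrate that inhibits mTOR complex 1. At chr6:54881581-54890917 it overlaps TBC1D17, and it had 13.2, 13.3 and 14.1 normalized counts in Obese-MSCs against 10.2, 12.9 and 7.22 in Lean-MSCs. The Obese libraries were close together and just above Lean replicate 8, so the groups did not overlap (log2 ratio 0.42, exact permutation p = 0.1). The ratio of 1.34 was below the fold criterion, and the limma interval of -0.29 to 1.12 included 0. TBC1D17 had 12.02, 5.64 and 6.03 in Obese-MSCs against 2.44, 9.94 and 7.19 in Lean-MSCs, which overlapped.

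MTOR itself (chr6:71286989-71412913) had 23.5, 45.6 and 39.9 normalized counts in Obese-MSCs and 38.4, 47.7 and 23.7 in Lean-MSCs. The ranges were nearly the same and the log2 ratio was -0.01 (exact permutation p = 0.9), with a limma interval of -0.65 to 0.64. DEPTOR, which binds and inhibits mTOR, had 39.4, 48.4 and 44.7 in Obese-MSCs against 76.6, 76.5 and 36.1 in Lean-MSCs. Lean replicates 7 and 8 were above all Obese libraries and Lean replicate 9 was below them. The log2 ratio was -0.51 (exact permutation p = 0.4), and the gene was past the criteria for low 5hmC only without Lean replicate 9.

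RPTOR, the scaffold of mTOR complex 1, had 28.0, 26.5 and 25.9 in Obese-MSCs and 32.6, 10.9 and 33.8 in Lean-MSCs. Lean replicate 8 was far below the other 5 libraries, and the log2 ratio of 0.06 became -0.31 without it. RICTOR and MAPKAP1 encode subunits particular to mTOR complex 2. RICTOR had means of 25.7 ± 10.8 in Obese-MSCs and 31.9 ± 9.39 in Lean-MSCs, and MAPKAP1 had 33.4 ± 5.50 and 31.3 ± 5.02. Both had groups that overlapped.

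Of the effectors, RPS6KB1 encodes the S6 kinase that phosphorylates ribosomal protein S6. It had 28.9, 27.5 and 23.7 normalized counts in Obese-MSCs and 30.5, 30.8 and 25.7 in Lean-MSCs, and its log2 ratio was -0.12. SLC2A4, the gene of the glucose transporter GLUT4, had 15.8, 10.4 and 11.8 in Obese-MSCs against 8.09, 10.9 and 17.4 in Lean-MSCs. The Lean libraries enclosed the Obese ones, and the log2 ratio of 0.06 went from -0.16 to 0.41 when single libraries were left out. The glycogen synthase kinases GSK3A and GSK3B had log2 ratios of 0.02 and 0.09, and TBC1D4, the AKT substrate that holds back GLUT4 vesicles, had 0.18. RPS6KB2, the gene of a related S6 kinase, lay near the floor of 3 normalized counts, with means of 3.50 and 2.79.

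Among the inhibitors, PTPN1 encodes the phosphatase that strips phosphate from the receptor, and its means were 96.0 ± 14.5 in Obese-MSCs and 91.8 ± 10.2 in Lean-MSCs. GRB10, an adaptor that blocks the receptor kinase, had 108 ± 27.7 and 95.3 ± 13.3. SOCS1 and SOCS3, which are induced by cytokines and target the receptor and IRS proteins, had log2 ratios of 0.09 and 0.34. SOCS1 was past the study criteria when Lean replicate 8 was left out. None of these 4 genes had separate groups. GRB14, a relative of GRB10, had 2.51, 0 and 0.0355 in Obese-MSCs and 6.60, 2.98 and 1.05 in Lean-MSCs. Its Obese mean of 0.848 was below the floor of 3 normalized counts and its Lean mean of 3.54 just above it, and the log2 ratio of -2.06, the lowest of the 34, rests on these low counts. The groups overlapped, and when limma was run without a filter on low values GRB14 joined IRS1 at an unadjusted p of 0.05 or less, with 0 adjusted. INPPL1, which encodes the lipid phosphatase SHIP2, had means of 3.18 and 2.11, also near the floor.

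**Figure D2:**
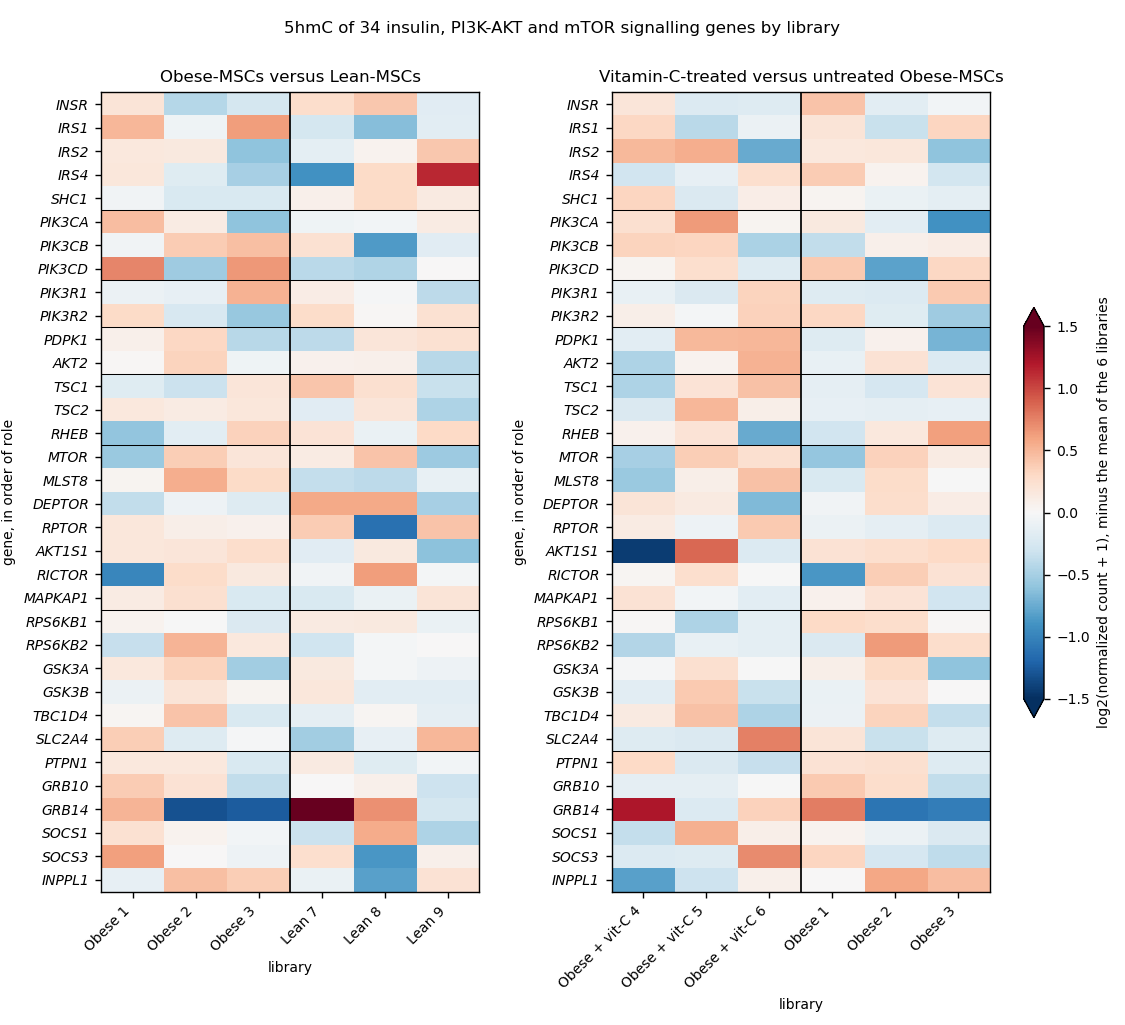
Level of 5hmC of the 34 genes (rows, in order of role, lines between roles) in each library (columns), as log2(normalized count + 1) minus the mean of the 6 libraries of that table. Colours run from blue (below the gene's mean) to red (above it) and deepen no further beyond the ends of the colour bar. Only a few rows keep a single colour across a group, single libraries such as Lean replicate 8 in RPTOR and treated replicate 4 in AKT1S1 stand apart from the rest of their group, and GRB14, whose counts are near 0, has the deepest colours.

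For the 31 genes tested in limma, the 95% interval of the difference between Obese-MSCs and Lean-MSCs reached a median of 0.64 to either side on the log2 scale, and from 0.43 to 1.06 over the genes. Of these intervals 1, that of IRS1, did not contain 0, and 19 of the 31 lay wholly within 2-fold either way. For genes with both means above 10 normalized counts, the median coefficient of variation was 23.7% in the Obese and 18.7% in the Lean libraries for the members of the pathway, and 21.7% and 19.98% for all such genes. Of the 34 genes 8 had means that differed by at least 1.4-fold (23.5%), as had 26.1% of all genes above the floor.

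Vitamin-C treatment of Obese-MSCs was compared with untreated culture to ask whether it moves 5hmC on the same pathway. Untreated cells had no added vitamin-C but were not free of it, as the growth medium held some. The paper allows that its results may therefore show less than the full effect. Cells in medium free of vitamin-C were not tested. By the study criteria 0 of the 34 genes were called, where 1.11% of the 18992 genes were high and 0.806% low in treated cells. RPTOR was the only gene whose groups did not overlap, with higher levels in every treated library. That is 1 gene higher and 0 lower, beside 3.24% and 2.67% of all genes. In limma 0 of 31 genes tested passed an adjusted p of 0.05, as for all 15194 genes tested (0%), and 0 had an unadjusted p of 0.05 or less, beside 0.974% of all genes. Matchings of treated with untreated libraries as blocks were fitted after seeing the data, as no source gives them. In 1 of them treated replicates 4, 5 and 6 were matched to untreated replicates 1, 2 and 3. It gave an unadjusted p of 0.05 or less in 2 members (PIK3CA and PDPK1) and 2.45% of all genes. The other matchings gave 0 members and 0.566% to 1.15% of all genes. No matching gave a gene with an adjusted p of 0.05 or less. Of the 33 genes with a mean above 3 in either group, 19 had a higher and 14 a lower mean in treated cells, with a median log2 ratio of 0.07 against 0.01 for all genes.

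RPTOR (chr12:1709121-1991844) had 36.2, 31.4 and 44.0 normalized counts in treated replicates 4 to 6 and 31.1, 30.0 and 28.6 in untreated replicates 1 to 3, the order kept below. The lowest treated library, replicate 5, was just above the highest untreated one. The means were 37.2 ± 6.34 and 29.9 ± 1.28 (SD, n = 3 each), a ratio of 1.24 and a log2 ratio of 0.31 that lay between 0.18 and 0.42 with single libraries left out (exact permutation p = 0.1). The limma interval was -0.28 to 0.87.

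Among genes with both means above 3 normalized counts, the 3 highest and the 3 lowest ratios included genes whose groups overlapped. PIK3CA had 37.2, 49.2 and 32.1 in treated and 34.8, 27.9 and 16.1 in untreated cells. Untreated replicate 3 was the lowest of the 6 libraries and untreated replicate 1 lay among the treated ones, and the log2 ratio was 0.59 (exact permutation p = 0.2, limma interval -0.07 to 1.30). PDPK1 had 29.2, 46.4 and 46.6 in treated against 28.5, 34.2 and 19.9 in untreated cells. Here treated replicate 4 lay among the untreated libraries while the other treated libraries were above them, with a log2 ratio of 0.56 (exact permutation p = 0.2). PDPK1 was past the study criteria only without treated replicate 4.

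At the other end, also among genes with both means above 3, RPS6KB1 had 26.2, 18.4 and 23.3 normalized counts in treated and 32.0, 31.1 and 26.1 in untreated cells. Treated replicate 4 was just above untreated replicate 3 and otherwise the treated libraries were lower, with a log2 ratio of -0.39 (exact permutation p = 0.2). RHEB had 10.1, 11.2 and 5.25 in treated against 7.63, 10.7 and 15.2 in untreated cells, a log2 ratio of -0.34 with groups that overlapped widely. AKT1S1 had 4.04, 23.4 and 10.7 in treated and 14.7, 15.0 and 15.5 in untreated cells. The untreated libraries were nearly equal and the treated ones lay on both sides of them, so its log2 ratio of -0.25 ran from -1.04 to 0.18 with single libraries left out.

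In the receptor and its substrates, treated and untreated levels overlapped for all 5 genes. INSR had 53.3, 40.7 and 41.1 in treated and 63.3, 41.9 and 45.5 in untreated cells, a log2 ratio of -0.16. IRS1 had 229, 139 and 174 in treated against 211, 146 and 230.0 in untreated cells, with a log2 ratio of -0.12 and a limma interval of -0.63 to 0.39. For IRS1 the ranges were nearly the same. SHC1 had 116, 79.5 and 99.4 in treated against 95.1, 85.8 and 83.0 in untreated cells, and its log2 ratio was 0.16. IRS4 stayed low, at 4.03, 4.61 and 6.31 in treated against 6.98, 5.37 and 4.06 in untreated cells. The means of IRS2 were 19.6 ± 8.68 and 16.4 ± 4.85.

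Among the PI3-kinase and AKT genes, PIK3R1 had 94.6, 87.9 and 130.0 in treated and 89.7, 89.1 and 135 in untreated cells. These sets of levels were nearly the same, with 1 high library in each, and the log2 ratio was -0.01 (limma interval -0.53 to 0.53). PIK3CD had 22.1, 26.0 and 18.7 in treated against 28.7, 11.96 and 26.9 in untreated cells, of which untreated replicate 2 was lowest. AKT2 had 39.2, 56.5 and 78.1 in treated against 50.0, 63.2 and 46.9 in untreated cells. Its treated libraries spread over a range that enclosed the untreated ones, and the log2 ratio was 0.12. PIK3CB and PIK3R2 had log2 ratios of 0.16 and 0.26, with groups that overlapped.

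Of the mTOR genes, MTOR had 28.2, 51.9 and 47.5 in treated and 26.5, 51.4 and 43.9 in untreated cells, with a log2 ratio of 0.07 and the lowest library of each group far below the rest. MLST8 had 12.1, 19.4 and 25.2 in treated against 15.4, 22.5 and 18.2 in untreated cells. The treated libraries enclosed the untreated ones, the log2 ratio was 0.02 and the limma interval was -0.74 to 0.69. DEPTOR had 52.3, 50.1 and 28.4 in treated against 44.0, 54.6 and 49.2 in untreated cells, and only treated replicate 6 lay below the untreated range. The other members of the complexes and their regulators had log2 ratios of 0.10 (RICTOR), 0.01 (MAPKAP1), 0.17 (TSC1) and 0.30 (TSC2), all with groups that overlapped.

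SLC2A4 had 13.1, 12.9 and 26.2 normalized counts in treated cells and 17.4, 11.8 and 13.1 in untreated cells. Only treated replicate 6 was above the untreated range, and the log2 ratio of 0.30 became -0.12 without it. TBC1D4, GSK3A and GSK3B had log2 ratios of 0.09, 0.11 and -0.04. Of the inhibitors, PTPN1 had -0.16, GRB10 -0.23, SOCS1 0.23 and SOCS3 0.25 on the same scale. Again the groups of all these genes overlapped.

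Low counts left 3 genes near the floor. The means of RPS6KB2 were 2.49 in treated and 3.91 in untreated cells, and those of INPPL1 were 1.86 and 3.56. Their log2 ratios, -0.65 and -0.94, were the lowest of the 33 and had a treated mean below the floor. Both were past the criteria for low 5hmC when untreated replicate 1 was left out. GRB14 had means of 2.22 and 0.926, both below the floor of 3, so no fold is given.

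**Figure D3:**
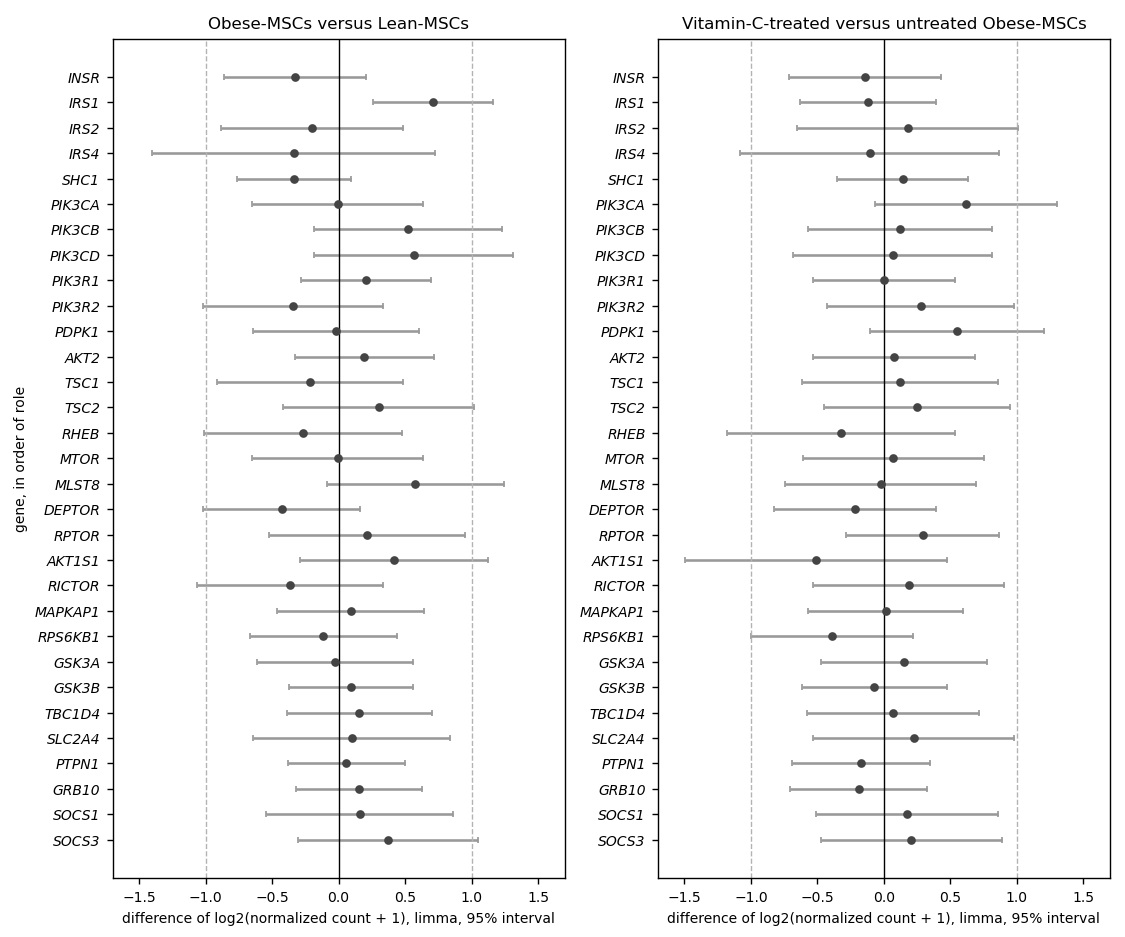
Difference between groups (horizontal axis, on the scale of log2(normalized count + 1)) of the 31 genes tested in limma, for Obese-MSCs versus Lean-MSCs (left) and treated versus untreated Obese-MSCs (right). Points are estimates, bars their 95% intervals, and dashed lines mark 2-fold either way. On the left the interval of IRS1 alone lies off 0, and on the right all 31 intervals contain 0.

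The intervals in this comparison reached a median of 0.68 to either side, from 0.49 to 0.99, and 25 of the 31 lay within 2-fold either way. Means differed by at least 1.4-fold for 4 of the 33 genes (12.1%), as they did for 17.2% of all genes above the floor. Coefficients of variation had a median of 25.3% in treated and 20.7% in untreated libraries for the pathway, and of 24.6% and 21.8% for all genes with both means above 10.

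The comparisons share the 3 untreated Obese libraries, and their values are therefore not independent. High values in these libraries raise the first ratio and lower the second, and low values do the opposite. IRS1, MLST8, AKT1S1 and SHC1 are given because these libraries lay apart from the Lean ones. Ratios of opposite sign in them are therefore no evidence of a reversal. The log2 ratio of IRS1 was 0.73 for Obese-MSCs over Lean-MSCs and -0.12 for treated over untreated cells. MLST8 had 0.63 and 0.02, AKT1S1 had 0.42 and -0.25, and SHC1 had -0.34 and 0.16. RPTOR had 0.06 and 0.31. None of these 5 genes met the study criteria in treated against untreated cells.

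**Figure D4:**
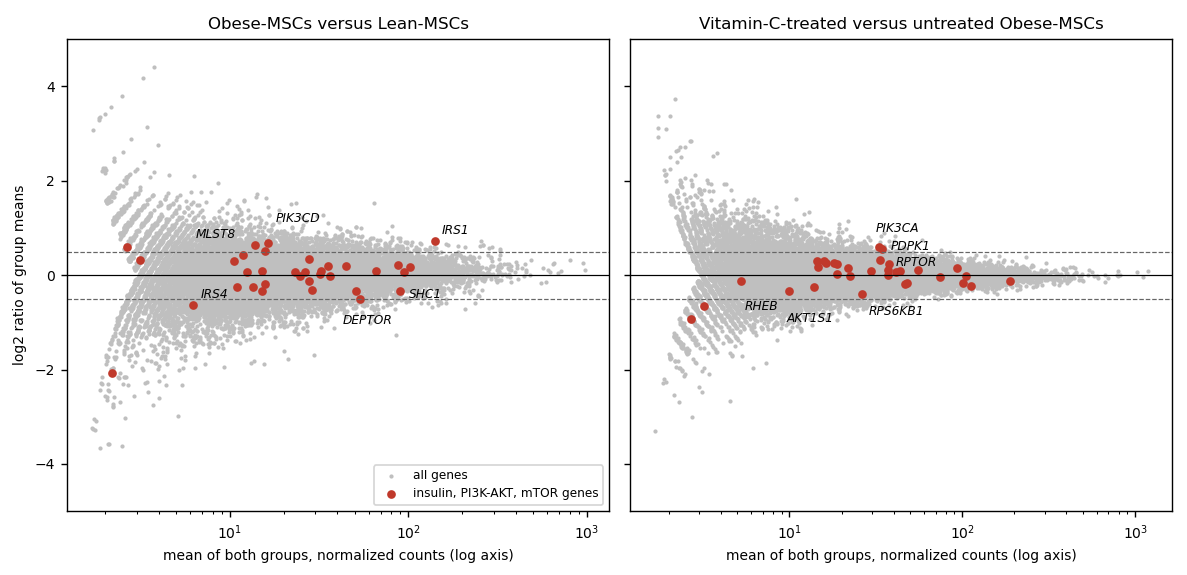
Log2 ratio of group means (vertical axis) against the mean of both groups (horizontal log axis, normalized counts) for all genes with a mean above 3 in either group (grey) and the genes of the pathway among them (red, 34 on the left and 33 on the right). Dashed lines mark the ratios 1.4 and 0.7. The red points lie within the grey cloud, and ratios spread more widely at low means for both.

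A wider list of 118 further genes of the pathway was read from the same fits, of which 114 stood in the first table and 113 in the second. In Obese-MSCs 3 of the 114 were called high and 0 low. NPRL3, a subunit of the GATOR1 complex that restrains mTOR when amino acids are scarce, had 21.3, 15.1 and 15.4 in Obese-MSCs against 10.2, 10.9 and 10.3 in Lean-MSCs (log2 ratio 0.72). SREBF1, which encodes a transcription factor of lipid synthesis that insulin induces, had 16.3, 17.1 and 14.2 in Obese-MSCs against 9.09, 9.93 and 10.3 in Lean-MSCs (log2 ratio 0.70). PPP2CA, the catalytic subunit of a phosphatase that acts on AKT, had 21.7, 24.7 and 21.3 in Obese-MSCs against 13.7, 17.9 and 15.4 in Lean-MSCs (log2 ratio 0.53). In all 3 genes the Obese libraries lay above the Lean ones without overlap, as in 7 of the 114, with 2 the other way. These shares were 2.63% called and 7.89% without overlap in the wider list, beside 4.50% and 11.8% of all genes. The median log2 ratio of the wider list was 0.10, and 0 of its 100 genes tested in limma passed an adjusted p of 0.05. An unadjusted p of 0.05 or less was found for 1 (INPP5K), beside 6.81% of all genes tested. INPP5K, listed among the phosphatases, had 18.3, 40.1 and 12.3 in Obese-MSCs against 8.06, 10.9 and 14.3 in Lean-MSCs. Its ratio of 2.12 was the highest of the wider list, but its groups overlapped and it was not called.

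In treated cells 2 of the 113 further genes were called high and 1 low. DDIT4, a stress-induced inhibitor of mTOR complex 1, had 16.1, 14.8 and 13.4 in the treated libraries and 9.62, 7.51 and 4.18 in the untreated ones, a ratio of 2.08 and a log2 ratio of 1.06. CRKL, an adaptor of tyrosine kinase signalling, had 29.2, 25.0 and 23.2 in treated against 18.2, 19.2 and 9.52 in untreated cells (log2 ratio 0.72). PIK3R4, a regulatory subunit of the PI3-kinase of autophagy, was lower, at 19.1, 14.8 and 18.8 against 27.7, 25.8 and 27.2 (log2 ratio -0.61). The groups of all 3 were separate, with treated above untreated in 3 of the 113 genes and below in 2. Called genes made up 2.65% of this list and 1.92% of all genes, and genes without overlap 4.42% and 5.91%. In limma 0 of 98 genes tested passed an adjusted p of 0.05. An unadjusted p of 0.05 or less was found for 2 (DDIT4 and CRKL), beside 0.974% of all genes tested. PPP2CA, high in Obese-MSCs above, had 20.1, 19.4 and 16.9 in treated and 24.2, 27.8 and 23.4 in untreated cells, without overlap but with a ratio of 0.749 that did not reach the fold criterion, and both comparisons use the same untreated libraries. The median log2 ratio of this list was 0.02.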

How the data were processed

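The hMeDIP-seq libraries were 3 Lean, 3 untreated Obese and 3 vitamin-C-treated Obese, grouped by the submitters' labels. The deposited values are a 5hmC signal per gene, in normalized counts. The authors obtained them by alignment to susScr 11.1 (Bowtie 2, 2.3.3.1), removal of duplicates (Picard, 1.67), htseq-count (0.9.1) over exons and processing in edgeR (3.28.1). The strand setting, the handling of reads shared by genes and the annotation version are not given in the sources used here. The 2 tables were normalized separately. The values are fractional, so depth in reads is not given, and errors are those between 3 libraries, without counting intervals. In Lean replicate 8 the values lie close to multiples of a value just below 1, as in INPPL1 (0.989), GRB14 (2.98) and MLST8 (9.93). There 1 normalized count is thus likely near 1 read, and genes with low values rest on few reads. Since totals were equalized, a shift of 5hmC common to every gene would be hidden. The study carried Obese-MSCs from passage 3 through another passage with or without added vitamin-C. No source used here says which treated library, if any, shares a pig with which untreated one. If libraries of a group were not from separate pigs, p-values measure technical spread only. In the table of treated libraries, spreadsheet dates stood in place of 25 gene names, and 645 tiny residues were taken as 0.

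All genes of a table were tested together by the criteria of the study and, independently, with limma 3.58.1 (R 4.3.3) with a trend on the mean, on log2(normalized count + 1) over the upper 80% of genes by mean, with Benjamini-Hochberg adjustment. The pseudocount of 1 lowers the differences that limma gives for low genes. Ratios of group means carry no pseudocount and are not given where both means are 3 normalized counts or less. For single genes the 20 arrangements of the libraries gave an exact permutation p (two-sided). The rest used Python 3.11.15, scipy 1.17.1, numpy 2.4.6, pandas 2.3.3 and matplotlib 3.10.9. The procedure was run on simulated data with 3-fold changes in genes with higher means. How well it finds differences as small as those of IRS1 or MLST8 was not tested.

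Values in every library are given for genes past the study criteria, genes whose groups do not overlap, the 3 highest and 3 lowest ratios in each comparison among genes with both means above 3, and INSR, IRS1, PIK3R1, AKT2, MTOR and SLC2A4 for their roles. GRB14 is also given by library in the first comparison, for its low counts. Of the wider list, genes past the criteria are named. The members and lists were chosen with earlier results of these data known. Gene positions are RefSeq spans in Sscrofa11.1, found by symbol for all 34 genes, of which 11 overlap the span of another gene. Alternatives were other tests, thresholds, filters, pseudocounts and scalings, each library left out in turn and, added after seeing the data, blocks for each matching of treated with untreated libraries.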

Additional observations from a re-analysis of the deposited data

How the results depend on the processing

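By the study criteria the calls among the 34 genes were few and changed when single libraries were left out. Each such run also had fewer libraries, which weakens the test. The log2 ratio of MLST8 in Obese-MSCs over Lean-MSCs stayed between 0.48 and 0.75 under every scaling and with each library left out. In Obese-MSCs versus Lean-MSCs, MLST8 was the 1 gene called with the deposited values, on the log2 scale, among the upper 80% of genes by mean, and after scaling by size factors or quantiles. With unequal variances or a p-value threshold of 0.01 the count was 0, and with a fold threshold of 1.2 it was 2 (MLST8 high, SHC1 low). With each library left out in turn it ranged from 0 to 3, and the genes differed: without Obese replicate 1 they were MLST8 and PIK3R2, without Obese replicate 2 IRS1 and PIK3CD, without Lean replicate 8 TSC2, AKT1S1 and SOCS1, without Lean replicate 9 DEPTOR, and without Obese replicate 3 or Lean replicate 7 none. In treated versus untreated Obese-MSCs the count of 0 became 1 without treated replicate 4 (PDPK1) and 2 without untreated replicate 1 (RPS6KB2 and INPPL1), so it ranged from 0 to 2.

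Over all genes, a p-value threshold of 0.01 lowered the calls from 852 to 216 in the first comparison and from 364 to 66 in the second, and restricting to the upper 80% by mean lowered the second to 231. Genes with an adjusted p of 0.05 or less in limma ranged from 0 to 1 with each library left out in the first comparison and were 0 under every alternative run in the second. Log2 ratios under every scaling, with a pseudocount and with each library left out were taken for 17 genes. These were the genes given by library except GRB14, whose low counts were not part of this check. The ratios kept 1 sign throughout for 10 genes in the first comparison and 6 in the second. Among the rest, IRS4 ran from -1.05 to 0.06 in the first and AKT1S1 from -1.04 to 0.18 in the second. With 3 libraries a group, limma intervals reached a median of 0.64 and 0.68 to either side on the log2 scale, which limits the differences that could be seen. The groups share no replicate numbers and no source says which of their libraries share a pig. Each of the 6 matchings of treated with untreated libraries was therefore fitted in limma as a replicate block. This alternative was chosen after seeing the data. It gave 0 genes with an adjusted p of 0.05 or less in every matching. At an unadjusted p of 0.05 it gave 2 of the 31 members (PIK3CA and PDPK1) and 372 genes when treated replicates 4, 5 and 6 were matched to untreated replicates 1, 2 and 3, and 0 members and 86 to 175 genes in the other matchings. Across genes, deviations from the group means correlated at 0.259, 0.34 and 0.149 in those 3 pairs of libraries, a hint from the data and not from the design. In the other 6 pairs the correlations lay between -0.225 and -0.0311. Deviations from a group mean sum to 0 within each gene, so positive values in some pairs force negative ones in others. The negative values are therefore no separate evidence for a matching.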

Other observations

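PDPK1, MLST8 and TSC2 lie within 505652 bases of each other on chromosome 3 (39429928 to 39935579 in Sscrofa11.1). Their log2 ratios of group means were -0.02, 0.63 and 0.30 in Obese-MSCs over Lean-MSCs and 0.56, 0.02 and 0.30 in treated over untreated cells. These genes were picked out after their values were seen, and no test was made on them as a group.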
